A study of Arabidopsis thaliana with 18 samples.

Results

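The 10 genes described here belong to the flavonoid pathway of *Arabidopsis thaliana* and were measured in seeds. They were picked by locus identifier, with earlier results of these data known when the set was made. They were CHS (AT5G13930), CHI (AT3G55120), F3H (AT3G51240), F3'H (AT5G07990), FLS1 (AT5G08640), DFR (AT5G42800), ANS (AT4G22880), BAN (AT1G61720), TT2 (AT5G35550) and MYB12 (AT2G47460), which makes 10 of the 27587 genes and 15 of the 48268 transcripts in the count table. RNA was sequenced from 18 libraries, with 3 replicates of at least 100 entire seeds in each of 6 groups, which were *ros1-4* and Col-0 sampled as dried mature seeds, at germination stage II (seed coat ruptured, radicle tip visible) and at germination stage IV (radicle further out). All seeds came from plants kept at 23 °C under 16 h of light, and germination followed drying, imbibition in water and incubation in the light. Col-0 is the wild type, and *ros1-4* is a homozygous T-DNA insertion line of a single allele in the Col-0 background, whose insertion lies in ROS1, which encodes a DNA glycosylase that removes methylated cytosines. Only the powders of the germination stages are described as having passed through a lysis buffer with polyvinylpyrrolidone, so this step and the stage cannot be told apart in any comparison of germinating with mature seeds. The seeds are whole organs, so that embryo, endosperm and seed coat contribute to each value, and fewer cells of a type and less RNA per cell cannot be told apart.

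Flavonoids are built from phenylalanine through p-coumaroyl-CoA. CHS, CHI and F3H make the shared dihydroflavonol intermediates, FLS1 turns these into flavonols, the UV-absorbing pigments of embryo and seedling, and DFR, ANS and BAN lead to anthocyanins and to the proanthocyanidins that give the Arabidopsis seed coat its brown colour. The proanthocyanidin branch is known to be active in the seed coat of the developing seed, under control of the MYB factor TT2, whereas the flavonol branch is under control of MYB12 and its close relatives and responds to light.

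The libraries held 18737837 to 20787603 counts each, with the most counts in germinating seeds labelled *ros1-4* (20719027 to 20787603 at both stages, against 18763214 to 19947136 in Col-0). The 10 most abundant genes took 33.3% to 36.0% of the counts of mature *ros1-4* seeds and 28.2% to 30.4% of those of mature Col-0 seeds, against 6.85% to 7.67% at germination. ROS1 had 1219 to 1466 counts in mature *ros1-4* libraries, against 2455 to 2578 in Col-0, but 1221 to 1286 against 256 to 281 at stage II and 1134 to 1331 against 252 to 312 at stage IV. The higher ROS1 counts at germination go against the label if the insertion lowers the transcript, so the groups are called libraries labelled *ros1-4*, and each direction between genotypes below rests on these labels. Col-0 replicate 3 stood apart at stage II, with a root mean square log2 difference of 0.354 and 0.349 to its companions, which differed by 0.198 from each other over 14088 genes. Of the tissue markers, the seed reserve gene CRU3 was at 1488819 to 1882340 counts in mature libraries labelled *ros1-4* and 1490896 to 1599369 in mature Col-0 libraries. The seed coat peroxidase PER36 did not exceed 16 counts in any mature library, and the endosperm factor ZOU did not exceed 2 counts in the 18 libraries. Other markers of both tissues were well detected. In mature seeds the 4 seed coat genes summed to 858 to 892 CPM (counts scaled by library) in libraries labelled *ros1-4* and 1033 to 1039.7 CPM in Col-0. The 3 endosperm genes summed to 78595 to 88935 CPM and 31662 to 47394 CPM. These genes went in different directions, with EPR1 higher and EXPA2 lower in libraries labelled *ros1-4*, so the sum does not stand for each of them. Nothing in the labels says whether replicates came from separate plants, so p-values measure the spread between these samples.

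The sequences upstream of 4 members are shown, since these 4 members span the range of the results: CHS and F3H of the shared steps and FLS1 of the flavonol branch, which all had lower counts in germinating seeds labelled *ros1-4*, and DFR of the pigment branch, which was hardly transcribed. Each is the 250 bases before the gene start, read 5′ to 3′ from the RefSeq annotation of TAIR10.1. Capitals mark the G-box CACGTG, any ACGT core (the G-box contains it) and CCAACC, a sequence bound by MYB factors.

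CHS, chr5:4488226-4488475, plus strand: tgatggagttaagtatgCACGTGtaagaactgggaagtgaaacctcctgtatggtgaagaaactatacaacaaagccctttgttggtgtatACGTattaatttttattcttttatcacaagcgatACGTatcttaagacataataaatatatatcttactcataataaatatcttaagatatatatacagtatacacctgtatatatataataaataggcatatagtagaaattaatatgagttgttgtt

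F3H, chr3:19024942-19025191, plus strand: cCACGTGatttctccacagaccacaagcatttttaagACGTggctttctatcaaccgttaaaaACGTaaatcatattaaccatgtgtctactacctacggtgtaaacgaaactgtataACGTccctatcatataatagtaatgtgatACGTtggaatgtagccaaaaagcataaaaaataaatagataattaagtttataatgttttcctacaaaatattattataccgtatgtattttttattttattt

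FLS1, chr5:2803583-2803832, plus strand: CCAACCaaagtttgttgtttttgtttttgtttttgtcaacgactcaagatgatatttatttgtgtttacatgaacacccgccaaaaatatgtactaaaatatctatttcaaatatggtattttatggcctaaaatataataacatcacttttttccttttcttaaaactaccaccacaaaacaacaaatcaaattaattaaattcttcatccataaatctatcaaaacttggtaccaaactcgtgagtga

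DFR, chr5:17166033-17166282, minus strand: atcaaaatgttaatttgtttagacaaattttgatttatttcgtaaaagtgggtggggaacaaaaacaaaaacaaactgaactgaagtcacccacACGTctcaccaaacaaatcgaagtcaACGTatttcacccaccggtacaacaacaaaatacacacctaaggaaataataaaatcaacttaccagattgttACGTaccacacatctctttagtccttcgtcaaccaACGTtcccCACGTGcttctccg

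Members that held a G-box in this window were CHS, F3H, DFR, BAN and MYB12, 5 of 10, against 1780 of 27385 promoters of the same length (6.50%). CHS had 3 ACGT cores, F3H 5 and DFR 5, while CHI, F3'H, FLS1, ANS and TT2 had none. At least 1 ACGT core was found in 44.1% of all promoters. The motif CCAACC stood in the promoters of FLS1 and ANS (6.33% of all promoters on either strand), and CCTACC, searched on both strands as well, in none of the 10 members and in 3.01% of all promoters. The G-box was thus present upstream of members with high and with very low counts alike. HY5, a light-signalling factor, is known to bind such boxes in the CHS promoter, but no binding was measured in these samples. The genes lie at chr5:4488476-4490264 (CHS), chr3:20430059-20431597 (CHI), chr3:19025192-19026872 (F3H), chr5:2560328-2563137 (F3'H), chr5:2803833-2805606 (FLS1), chr5:17164093-17166032 (DFR), chr4:12004726-12006209 (ANS), chr1:22790966-22792803 (BAN), chr5:13726743-13727961 (TT2) and chr2:19476326-19479597 (MYB12) in TAIR10.1. Exons of CHS overlap AT5G13940 and those of F3H overlap AT3G51238 on the opposite strand, and the methods do not state that strand was used. AT5G13940 itself had no more than 1 count in any library.

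The members fell into a group that was transcribed in germinating seeds and a group that was hardly detected. F3H, which hydroxylates flavanones to dihydroflavonols, had the highest mean of the 10 members in each of the 6 groups when counts were scaled by transcript length and depth (TPM, scaled so that each library has the same sum). Its mean level was 24.9 ± 1.81 TPM in mature libraries labelled *ros1-4* and 22.2 ± 1.84 TPM in mature Col-0 seeds (SD, n = 3 each). At stage II it was 47.0 ± 0.533 TPM in libraries labelled *ros1-4*, against 295 ± 39.3 TPM in Col-0, and at stage IV 42.4 ± 11.5 TPM against 159 ± 70.2 TPM (SD, n = 3 each). The summed level of CHS, CHI, F3H, F3'H and FLS1 was 30.9 to 34.0 TPM in mature libraries labelled *ros1-4* and 25.5 to 30.01 TPM in mature Col-0. In libraries labelled *ros1-4* it reached 79.0 to 81.7 TPM (stage II) and 72.8 to 100.9 TPM (stage IV), while Col-0 had 394 to 462 TPM (stage II) and 256 to 481 TPM (stage IV). The genotypes therefore did not overlap in this sum at any stage, by a small margin in mature seeds and by a wide margin at germination.

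**Figure D1:**
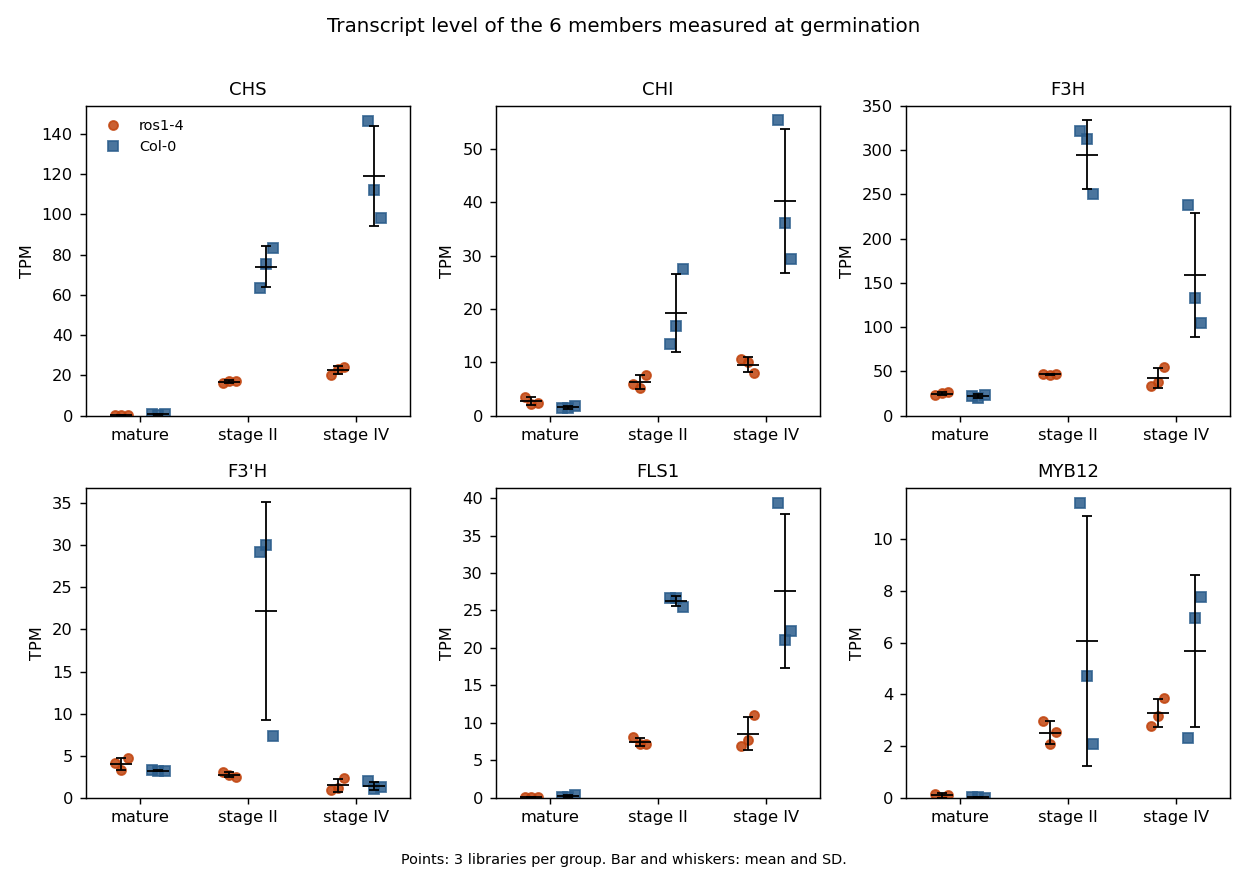
Levels in TPM (vertical axes, from 0) of CHS, CHI, F3H, F3'H, FLS1 and MYB12 in each of the 18 libraries by stage, with *ros1-4* as circles to the left of Col-0 as squares, and the mean with its SD for 3 libraries. At stage II the libraries labelled *ros1-4* had 46.5 to 47.6 TPM of F3H, against 250 to 322 TPM in Col-0, and Col-0 replicate 3 was low in F3'H and MYB12.

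The comparison of genotypes in mature seeds asked how the stored transcripts differed before imbibition. CHI, F3H and F3'H were higher in the libraries labelled *ros1-4*, by 2.10-fold or less. CHS was not called, and it passed the filter on low counts through the Col-0 libraries alone. Of the 10 members, 4 passed the filter on low counts, 3 of these rose and none fell, where 13.8% of the 15441 genes tested rose and 13.0% fell. The median log2 fold change of the 4 tested members was 0.54, against -0.01 over all genes tested. CHI, the isomerase that closes the flavanone ring, had 65, 40 and 43 counts in libraries labelled *ros1-4* and 26, 28 and 34 counts in Col-0. The groups did not overlap, and its log2 fold change amounted to 1.07 (standard error 0.27, edgeR adjusted p = 0.00795). Without *ros1-4* replicate 1, the highest library, it was 0.79 (edgeR adjusted p = 0.0543). F3H had 540, 599 and 630 counts in libraries labelled *ros1-4* and 542, 489 and 575 in Col-0, which overlapped as counts but not after TMM scaling, with 53.8 to 61.5 CPM against 38.8 to 45.8 CPM, the count as a share of the scaled library. Its log2 fold change was 0.46 (standard error 0.08, edgeR adjusted p = 6.96e-04). F3'H, which hydroxylates the B ring towards quercetin-type flavonoids, had 152, 122 and 174 counts against 124, 120 and 120, again apart only after scaling, a log2 fold change of 0.62 (standard error 0.15, edgeR adjusted p = 0.00496). Both differences depended on how libraries were scaled. By library size alone, the median over all genes was -0.34, F3H was at 0.12 (edgeR adjusted p = 0.29) and F3'H at 0.28 (edgeR adjusted p = 0.125). CHS was then called at -1.16 (edgeR adjusted p = 0.0231), but its direction was largely set by the filter and nothing is read from this call. With all 18 libraries in one fit none of the 3 calls remained, with CHI at 1.05, F3H at 0.44 and F3'H at 0.60 (edgeR adjusted p = 0.0708, 0.225 and 0.361).

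CHS, the first committed enzyme of the pathway, was stored at low levels, with 7, 9 and 15 counts in mature libraries labelled *ros1-4* and 28, 16 and 25 in mature Col-0. The groups were 1 count apart and overlapped after TMM scaling, and the log2 fold change of -0.83 (standard error 0.39) did not pass the test (edgeR adjusted p = 0.131). As CHS passed the filter through the Col-0 libraries alone, its direction was largely set by the filter. FLS1 had 2, 1 and 1 counts in libraries labelled *ros1-4* and 4, 3 and 7 in Col-0, below the filter. The ratio of its summed counts, scaled by library, was 0.351, with an exact 95% interval of 0.0841 to 1.12 that covers counting error only. MYB12 had 4, 0 and 3 counts against 1, 1 and 0, a ratio of 4.3 (0.818 to 42.4). At this depth no difference could be seen for these 2 genes.

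At stage II the members of the shared steps and of the flavonol branch were lower in the libraries labelled *ros1-4* than in Col-0, by 3.20-fold for CHI up to 8.56-fold for F3'H. Of the 10 members 5 fell, none rose, 1 was tested without a call and 4 were below the filter, where 11.1% of the 18521 genes tested fell and 11.4% rose. The median log2 fold change of the 6 tested members was -2.02, against -0.00 over all genes tested. CHS had 540, 592 and 587 counts in libraries labelled *ros1-4* and 2005, 2347 and 2627 counts in Col-0, which is 16.1, 17.4 and 17.3 TPM against 63.3, 75.6 and 83.4 TPM. All 3 libraries labelled *ros1-4* lay within a narrow band far under the lowest Col-0 library. The log2 fold change was -2.20 (standard error 0.11, edgeR adjusted p = 3.36e-05), or 4.60-fold lower.

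F3H showed the steepest fall in relation to its error, with 1172, 1156 and 1167 counts in libraries labelled *ros1-4* against 7463, 7133 and 5787 in Col-0. The log2 fold change was -2.72 (standard error 0.10, edgeR adjusted p = 1.11e-05). FLS1, the main flavonol synthase of Arabidopsis, had 202, 182 and 181 counts in libraries labelled *ros1-4* and 609, 614 and 571 in Col-0. Both groups were tight, and its log2 fold change amounted to -1.85 (standard error 0.08, edgeR adjusted p = 2.80e-05). CHI had 111, 100 and 146 counts against 238, 290 and 483, which gave a log2 fold change of -1.68 (standard error 0.27, edgeR adjusted p = 0.00431). In this gene replicate 3 was the highest of both groups.

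F3'H had 116, 102 and 95 counts in libraries labelled *ros1-4* and 1046, 1055 and 260 in Col-0. Col-0 replicate 3 thus lay nearer to the libraries labelled *ros1-4* than to its companions, and the log2 fold change of -3.10 had the largest standard error of the called members (0.51, edgeR adjusted p = 0.00453). It was -3.51 without that library. MYB12, the activator of flavonol genes, had 76, 54 and 66 counts in libraries labelled *ros1-4* and 277, 112 and 50 in Col-0, so that the groups overlapped through the same Col-0 library. Its log2 fold change of -1.34 (standard error 0.53) did not pass the test (edgeR adjusted p = 0.11), and without Col-0 replicate 3 it was -1.75 (edgeR adjusted p = 6.47e-04), which made 6 of the 10 members called. Calls rose over all genes as well without that library, with 3266 of 18735 genes lower and 3668 higher. With all libraries 2065 of 18521 were lower and 2117 higher. The calls of the other 5 genes held with each of the 6 libraries left out in turn and in each of the other fits.

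**Figure D2:**
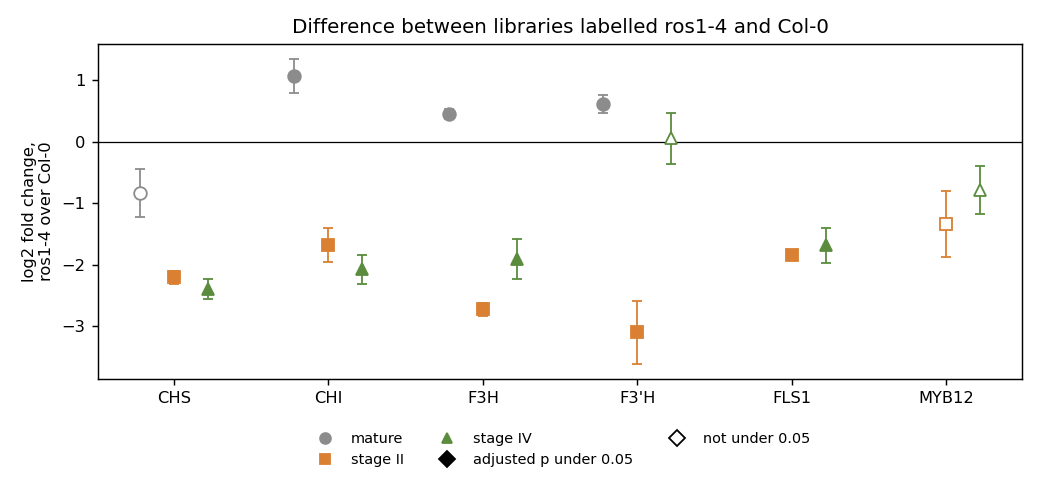
Log2 fold change of libraries labelled *ros1-4* over Col-0 (vertical axis) with its standard error for 6 members at the 3 stages, where filled symbols have an edgeR adjusted p under 0.05. Values for CHS, CHI, F3H and FLS1 lay between -2.72 and -1.68 at stage II and between -2.40 and -1.69 at stage IV, while F3'H was at -3.10 at stage II and at 0.06 at stage IV.

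At stage IV CHS, CHI, F3H and FLS1 were again lower in the libraries labelled *ros1-4*, by 3.22-fold for FLS1 up to 5.26-fold for CHS, and F3'H no longer differed detectably. Thus 4 of 10 members fell and none rose, where 4.5% of the 19020 genes tested fell and 3.72% rose, and 2 were tested without a call and 4 below the filter. The median log2 fold change of the 6 tested members was -1.79, against 0.01 over all genes tested. CHS had 664, 768 and 798 counts in libraries labelled *ros1-4* and 4633, 3351 and 2965 in Col-0, which gave a log2 fold change of -2.40 (standard error 0.16, edgeR adjusted p = 4.05e-04). CHI had 193, 185 and 148 counts against 975, 602 and 494, a log2 fold change of -2.08 (standard error 0.24, edgeR adjusted p = 0.0044). Neither gene overlapped between the groups, and in both Col-0 replicate 1 was the highest library.

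F3H had 806, 907 and 1355 counts in libraries labelled *ros1-4* and 5504, 2917 and 2311 in Col-0 at stage IV, a log2 fold change of -1.90 (standard error 0.32, edgeR adjusted p = 0.0151). FLS1 had 165, 179 and 261 counts against 882, 457 and 480, a log2 fold change of -1.69 (standard error 0.28, edgeR adjusted p = 0.0138). The groups stayed apart, but the spread was wider than at stage II and the calls were less secure. Without *ros1-4* replicate 2, F3H was at -1.82 (edgeR adjusted p = 0.078) and FLS1 at -1.60 (edgeR adjusted p = 0.0706), which left 2 members called, and without *ros1-4* replicate 1 F3H was at -1.76 (edgeR adjusted p = 0.0515). Calls were lost over all genes too without *ros1-4* replicate 2, with 183 of 19221 genes lower, against 856 of 19020 with all libraries. F3'H had 32, 43 and 90 counts in libraries labelled *ros1-4* against 71, 35 and 42 in Col-0, with overlapping groups (log2 fold change 0.06, standard error 0.42, edgeR adjusted p = 0.948). MYB12 had 69, 80 and 98 counts against 56, 159 and 179, a log2 fold change of -0.78 (standard error 0.39, edgeR adjusted p = 0.244). Here Col-0 replicate 1 was the low library, and without it the value was -1.15 (edgeR adjusted p = 0.012). A p-value that misses the threshold does not show that MYB12 and F3'H had equal levels.

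Whether the genotype difference itself changed between stages was tested as an interaction on 12 libraries. From mature seeds to stage II the difference between libraries labelled *ros1-4* and Col-0 fell for 4 of the 10 members and rose for none, where 9.24% of the 19252 genes tested changed downwards and 10.4% upwards. The change was -3.19 for F3H (log2, standard error 0.13, edgeR adjusted p = 2.71e-09), -3.73 for F3'H (standard error 0.57, edgeR adjusted p = 4.20e-04), -2.76 for CHI (standard error 0.42, edgeR adjusted p = 4.22e-04) and -1.38 for CHS (standard error 0.38, edgeR adjusted p = 0.0187). For CHS it was -0.98 without mature *ros1-4* replicate 3 (edgeR adjusted p = 0.165). For FLS1 the value was -0.41 with a standard error of 0.73 (edgeR adjusted p = 0.819) and for MYB12 -3.35 with a standard error of 1.97 (edgeR adjusted p = 0.265), both limited by the few counts in mature seeds. From stage II to stage IV F3'H was the single member called, with 3.12 (standard error 0.76, edgeR adjusted p = 0.0467), where 1.06% of the 19296 genes tested changed upwards and 2.4% downwards. The call of F3'H was lost without any 1 of 10 of the 12 libraries, with values of 2.54 to 3.38 (edgeR adjusted p = 0.0529 to 0.145), the libraries it did not depend on being Col-0 stage II replicate 3 and Col-0 stage IV replicate 1. For F3H the value was 0.79 (standard error 0.37, edgeR adjusted p = 0.244), and 1.21 without Col-0 stage IV replicate 1 (edgeR adjusted p = 0.0171).

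Between mature seeds and stage II most genes changed, and the calls of the members are given beside those shares. In both genotypes FLS1 and MYB12 passed the filter through their stage II libraries alone, so that their direction was set by the filter and nothing is read from their calls. The same held for CHS in the libraries labelled *ros1-4* alone, with 7, 9 and 15 counts in mature seeds. Its log2 fold change there was 4.31 (standard error 0.18), and nothing is read from its call. Of the remaining members, F3H and F3'H fell and none rose in the libraries labelled *ros1-4*, where 50.3% of the 18822 genes tested rose and 39.3% fell. The scaled counts of FLS1 were 52.7-fold higher (95% counting interval 20.5 to 194) and those of MYB12 10.4-fold higher (4.97 to 26.3), with 4 and 7 counts in the mature libraries. F3'H fell by 1.99 on the log2 scale (standard error 0.15, edgeR adjusted p = 1.55e-08). In Col-0, CHS, CHI, F3H and F3'H rose, where 47.3% of the 18388 genes tested rose and 41.0% fell. CHS rose by a log2 fold change of 5.67 (standard error 0.18), F3H by 2.68 (0.11), CHI by 2.53 (0.30) and F3'H, which fell in the libraries labelled *ros1-4*, by 1.71 (0.46), with edgeR adjusted p between 2.63e-09 and 0.00583. FLS1, with 14 counts in the 3 mature libraries, was 66.3-fold higher at stage II by its scaled counts (39.4 to 122), and MYB12, with 2 counts there, was 114-fold higher (31.3 to 941).

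F3H and CHI in the libraries labelled *ros1-4* changed direction with the scaling. With TMM scaling F3H fell by 0.49 on the log2 scale (standard error 0.06, edgeR adjusted p = 4.87e-06) and CHI was at -0.21 (standard error 0.23, edgeR adjusted p = 0.391). With library size alone both were called higher at stage II, F3H by 0.86 (edgeR adjusted p = 6.54e-08) and CHI by 1.15 (edgeR adjusted p = 1.52e-04), and the median of all genes then lay at 1.68 in the libraries labelled *ros1-4* and 1.14 in Col-0, against 0.33 and 0.17 with TMM. On both scales these 2 genes rose less than, or fell below, the median gene. With all 18 libraries in one fit F3H was at -0.48 (edgeR adjusted p = 0.0625). For the interaction from mature seeds to stage II the median of all genes lay at 0.45 with library size alone, against 0.05 with TMM, and the 4 calls held.

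Between stage II and stage IV, in the libraries labelled *ros1-4*, 2 of 10 members rose and 1 fell, where 20.7% of the 18951 genes tested rose and 19.2% fell, and in Col-0 2 rose and 2 fell, where 21.8% of the 18668 genes tested rose and 16.8% fell. CHS rose by 0.39 (log2, standard error 0.08, edgeR adjusted p = 0.00405) in libraries labelled *ros1-4* and by 0.63 (standard error 0.17, edgeR adjusted p = 0.023) in Col-0. CHI rose by 0.57 (standard error 0.16, edgeR adjusted p = 0.018) and by 1.02 (standard error 0.32, edgeR adjusted p = 0.0387). F3'H fell to 32 to 90 counts at stage IV, against 95 to 116 at stage II, in libraries labelled *ros1-4* (log2 fold change -0.91, standard error 0.31, edgeR adjusted p = 0.0391), and to 35 to 71 counts against 260 to 1055 in Col-0 (-4.01, standard error 0.58, edgeR adjusted p = 0.00285). F3H fell in Col-0 by 0.94 on the log2 scale (standard error 0.29, edgeR adjusted p = 0.0359), and was at -0.17 (standard error 0.16, edgeR adjusted p = 0.408) in libraries labelled *ros1-4*. FLS1 was at 0.12 (standard error 0.16) in libraries labelled *ros1-4* and at 0.00 (standard error 0.23) in Col-0, neither called. From stage II to stage IV CHS thus rose where F3H did not. The ratio of CHS to F3H in TPM differed between all 3 stages, with values between 0.00935 and 0.0172 in mature seeds, 0.338 and 0.374 at stage II, and 0.432 and 0.619 at stage IV in libraries labelled *ros1-4*. The Col-0 ratio lay between 0.0237 and 0.0375 in mature seeds, 0.196 and 0.333 at stage II, and 0.616 and 0.942 at stage IV.

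Most of these stage II to stage IV calls hung on single libraries. The fall of F3'H in Col-0 and the rise of CHS in libraries labelled *ros1-4* held with any 1 library left out. In libraries labelled *ros1-4*, CHI was at 0.46 to 0.55 (edgeR adjusted p = 0.05 to 0.0741) without stage II replicate 1 or 2 or stage IV replicate 1 or 2, and F3'H at -0.97 to -0.62 (edgeR adjusted p = 0.0781 to 0.126) without any 1 library other than stage IV replicate 3, without which F3H was called at -0.43 (edgeR adjusted p = 2.85e-04). In Col-0, the calls of CHS, CHI and F3H were each lost without stage II replicate 1 (0.52, 0.80 and -0.89 in log2; edgeR adjusted p = 0.0752, 0.109 and 0.0928), without stage II replicate 2 (0.65, 0.93 and -0.89; edgeR adjusted p = 0.0654, 0.121 and 0.0992) and without stage IV replicate 2 (0.69, 1.10 and -0.82; edgeR adjusted p = 0.0511, 0.0759 and 0.124). Without Col-0 stage IV replicate 1, CHI was at 0.70 (edgeR adjusted p = 0.103) and FLS1 was called lower at -0.35 (edgeR adjusted p = 0.0237), and without Col-0 stage IV replicate 3 F3H was at -0.72 (edgeR adjusted p = 0.0814).

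The members of the pigment branch were near or at the limit of detection throughout. DFR, the reductase at the entry to anthocyanins and proanthocyanidins, had 7, 2 and 8 counts in mature libraries labelled *ros1-4* and 2, 6 and 6 in mature Col-0. At stage II it had 0 counts in all 3 libraries labelled *ros1-4* and 0, 2 and 0 in Col-0, and at stage IV 0, 0 and 2 against 0, 1 and 3. A few reads were thus present in all 6 mature libraries and in few libraries of germinating seeds. In libraries labelled *ros1-4* DFR fell 5.10-fold from mature seeds to stage II, with stage II set to the floor of 3 counts per library. This value leaves out the counting error of the 7, 2 and 8 mature counts, so the fall may be smaller. The ratio of scaled counts of DFR in Col-0 was 0.0739 (0.00815 to 0.322).

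BAN, the anthocyanidin reductase of the seed coat, had 5, 0 and 5 counts in mature libraries labelled *ros1-4* and 1, 6 and 1 in mature Col-0. In germinating seeds it had no count in the 6 libraries labelled *ros1-4* and at most 1 in each of the 6 Col-0 libraries. In libraries labelled *ros1-4* BAN fell 3.02-fold to stage II, with stage II set to the floor of 3 counts per library. This value leaves out the counting error of the 5, 0 and 5 mature counts, so the fall may be smaller. The ratio of scaled counts of BAN in Col-0 was 0.129 (0.0134 to 0.648). ANS, the synthase of anthocyanidins, had 1, 4 and 0 counts in mature libraries labelled *ros1-4* and 2, 1 and 0 in mature Col-0, and 0 to 5 counts in the germination libraries. TT2, the seed coat MYB factor, had 0 counts in all 18 libraries. Such a count allows a level of up to 0.109 to 0.299 CPM, depending on the library, so none of this shows that the gene is silent in every cell. Between genotypes in mature seeds the ratio of scaled counts was 1.49 for DFR (0.692 to 3.27), 1.53 for BAN (0.545 to 4.47) and 2.05 for ANS (0.398 to 13.2), and no difference was detectable at this depth. The name seed coat pigment genes therefore describes what these 4 members are known for in developing seeds, and not genes with measurable transcripts in these germinating seeds.

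**Figure D3:**
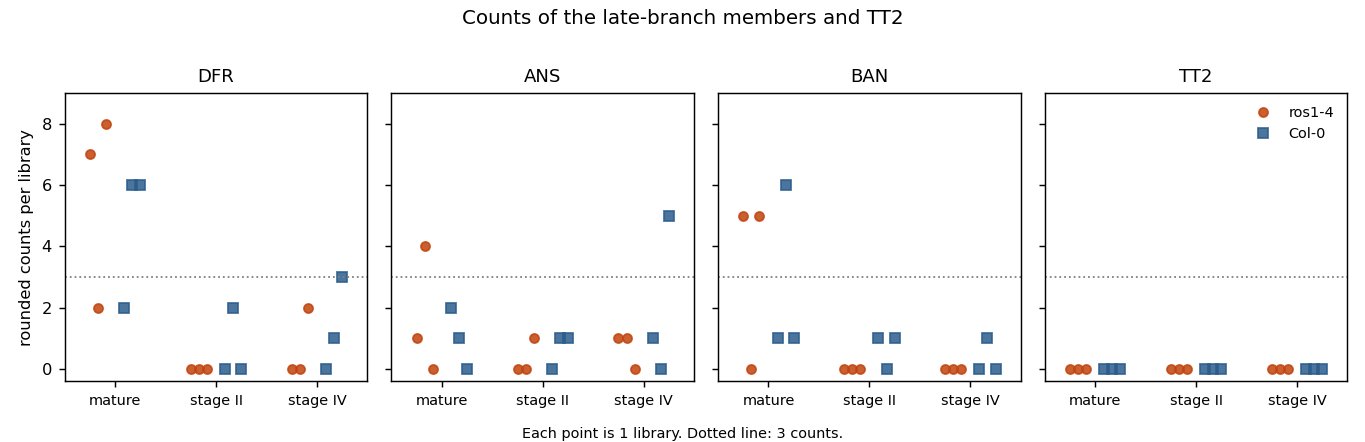
Rounded counts per library (vertical axis) of DFR, ANS, BAN and TT2 at the 3 stages, with *ros1-4* as circles to the left of Col-0 as squares and a dotted line at the floor of 3 counts. The highest value is 8 counts of DFR in a mature library labelled *ros1-4*, and TT2 has 0 counts in all 18 libraries.

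Other genes of the pathway were followed in 4 lists of 45 genes in all. In mature seeds 2 of the 45 rose and 1 fell in libraries labelled *ros1-4*, with 28 below the filter, at stage II 7 rose and 12 fell with 14 below it, and at stage IV 1 rose and 10 fell with 14 below it. The genes that rose include FLS3 at stage II and STK at both germination stages. These passed the filter through the libraries labelled *ros1-4* alone, so that their direction was set by the filter. Without *ros1-4* replicate 2 at stage IV, 1 of the 45 rose and 3 fell, where 108 of the 19221 genes tested rose and 183 fell. The median log2 fold change of the tested genes of the 4 lists was -0.14, 0.04 and -0.11 at the 3 stages, against -0.01, -0.00 and 0.01 over all genes tested. Of the 45 genes, 17 were tested in mature seeds and 31 at each germination stage. Of all genes tested, 13.8% rose and 13.0% fell in mature seeds, 11.4% rose and 11.1% fell at stage II, and 3.72% rose and 4.5% fell at stage IV. The genes called in mature seeds were PAL4 (0.52, edgeR adjusted p = 5.31e-04), a phenylalanine ammonia-lyase, TT15 (0.29, edgeR adjusted p = 0.0299), a sterol glucosyltransferase needed for normal seed coats, and DTX35 (-0.39, edgeR adjusted p = 0.0157), a vacuolar flavonoid transporter. None of the 3 calls held throughout: TT15 was at 0.24 to 0.32 (edgeR adjusted p = 0.0575 to 0.106) without any 1 library other than *ros1-4* replicate 3 and at -0.05 with library size alone, PAL4 was at 0.18 with library size alone (edgeR adjusted p = 0.108), and DTX35 was at -0.27 without Col-0 replicate 3 (edgeR adjusted p = 0.115) and at -0.38 without *ros1-4* replicate 1 (edgeR adjusted p = 0.0543).

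Of the 12 flavonol genes, 1 rose and 6 fell at stage II and 6 fell at stage IV, with 2 below the filter at both stages, where 11.4% of all genes tested rose and 11.1% fell at stage II, and 3.72% rose and 4.5% fell at stage IV. UGT78D1, the rhamnosyltransferase that decorates flavonols, had 129 to 185 counts in libraries labelled *ros1-4* and 1336 to 1885 in Col-0 at stage II, and 131 to 217 against 1910 to 2248 at stage IV. Its log2 fold change was -3.40 (standard error 0.18, edgeR adjusted p = 4.39e-05) and -3.66 (standard error 0.16, edgeR adjusted p = 9.45e-05). CHIL, the isomerase-like partner of CHS, was at -2.09 (edgeR adjusted p = 8.19e-05) and -1.82 (edgeR adjusted p = 0.0163), and UGT89C1, which rhamnosylates flavonols at another position, at -1.49 (edgeR adjusted p = 4.99e-05) and -1.0 (edgeR adjusted p = 0.00995). UGT78D2, a flavonoid glucosyltransferase, fell by 1.35 at stage II and 0.55 at stage IV on the log2 scale. At stage IV the call of CHIL was lost without *ros1-4* replicate 1 (-1.73, edgeR adjusted p = 0.0557) or 2 (-1.79, edgeR adjusted p = 0.0795), and that of UGT89C1 without *ros1-4* replicate 2 (-0.98, edgeR adjusted p = 0.0563). FLS3, a relative of FLS1 with weak activity, went the other way at stage II with 16 to 20 counts against 1 to 3, 9.56-fold higher by scaled counts (95% counting interval 3.85 to 30.6), and passed the filter through the libraries labelled *ros1-4* alone. Of the other MYB activators of flavonol genes, MYB111 did not pass the test at stage II (-0.46, standard error 0.18, edgeR adjusted p = 0.11) or stage IV (-0.09, standard error 0.20), and MYB11 had no more than 3 counts in any library. HY5 was at -0.99 at stage II (standard error 0.18, edgeR adjusted p = 0.00688), at 0.00 in mature seeds and at 0.21 at stage IV (edgeR adjusted p = 0.441).

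Between genotypes 11.4% of all genes tested rose and 11.1% fell at stage II, and 3.72% rose and 4.5% fell at stage IV. The entry steps from phenylalanine moved in both directions at stage II, where 3 of 8 rose and 3 fell. PAL1 was at 1.86 (edgeR adjusted p = 0.00476) and 4CL2 at 1.79 (edgeR adjusted p = 0.00615), whereas 4CL3, a coumarate-CoA ligase known for its part in flavonoid formation, was at -1.81 (edgeR adjusted p = 0.00183), PAL3 at -1.28 and C4H at -1.01. At stage IV none rose and 4 fell, 4CL3 at -2.17 (edgeR adjusted p = 0.00563), PAL3 at -1.79, C4H at -0.49 and PAL2 at -0.54, the last not being called without Col-0 replicate 2 or *ros1-4* replicate 2 or 3 (-0.51 to -0.48, edgeR adjusted p = 0.0625 to 0.0914). Of the 13 genes of proanthocyanidins and the seed coat, 6 were below the filter at both germination stages. TT8, the partner of TT2, did not exceed 4 counts in any library, TT16 did not exceed 1, TT12, a vacuolar transporter, did not exceed 1, and the laccase TT10 did not exceed 6, whereas TTG1, the third partner, had 98 to 511 counts and was called between genotypes at no stage, but in mature seeds at -0.40 without *ros1-4* replicate 2 (edgeR adjusted p = 0.0498). STK, a MADS factor of the ovule that is known to repress BAN, had 54 to 70 counts in libraries labelled *ros1-4* and 1 to 5 in Col-0 at stage II, 22.8-fold higher (95% counting interval 10.8 to 57.4), and 74 to 94 counts against 0 to 1 at stage IV, 230-fold higher (41.0 to 9133). STK passed the filter through the libraries labelled *ros1-4* alone, so its call is fixed in direction, and the fold at stage IV rests on 1 count in Col-0. It had 0 counts in all mature libraries and overlaps AT4G09950 on the opposite strand, so its counts are less certain. Of the 12 anthocyanin genes 6 were below the filter at germination. MYBL2, a repressor of the branch, was at 1.81 at stage II (edgeR adjusted p = 0.00431) and GL3, an activator with TTG1, at -1.04 (edgeR adjusted p = 0.00845), none of the list was called at stage IV, and PAP1 did not exceed 6 counts.

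**Figure D4:**
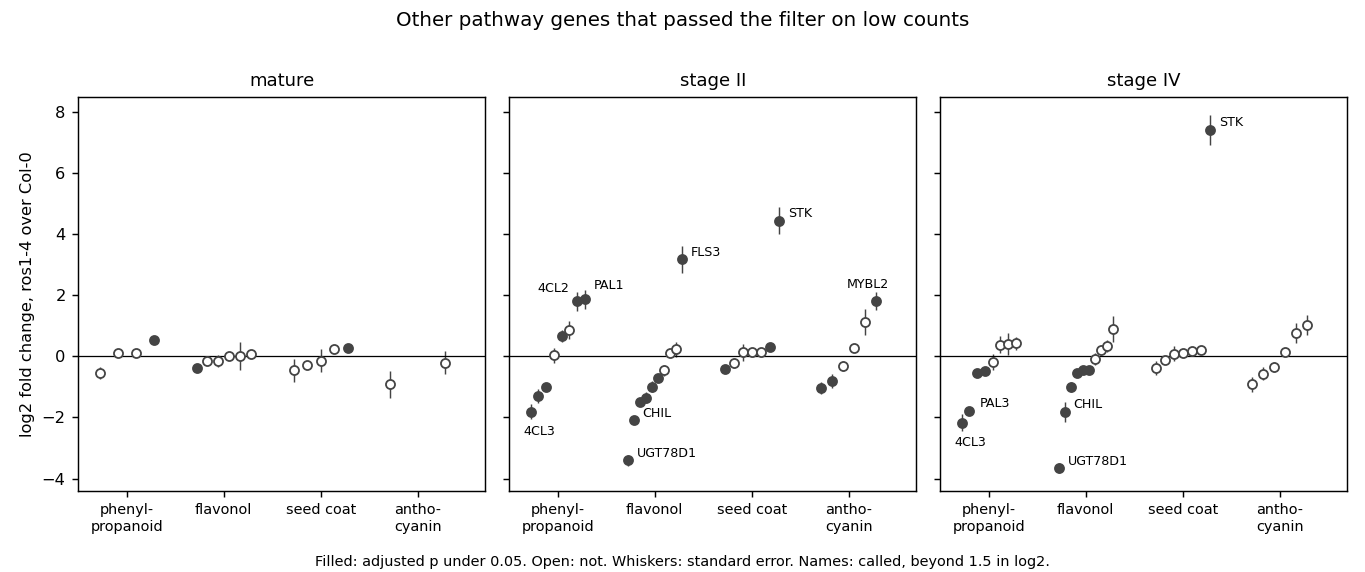
Log2 fold change of libraries labelled *ros1-4* over Col-0 (vertical axis) with its standard error for the pathway genes outside the 10 members that passed the filter, by list and stage, where filled points have an edgeR adjusted p under 0.05. UGT78D1 is lowest, at -3.40 and -3.66 at the germination stages, and STK highest, at 4.44 and 7.41, values that depend on few Col-0 counts.

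Between mature seeds and stage II, 23 of the 45 genes rose and 4 fell in libraries labelled *ros1-4*, and 19 rose and 6 fell in Col-0, where 50.3% and 47.3% of all genes tested rose and 39.3% and 41.0% fell. PAL4 fell, at -6.07 on the log2 scale in libraries labelled *ros1-4* and -6.22 in Col-0. OMT1, a methyltransferase of phenylpropanoids and flavonols, was at 6.84 and 6.76, with 5 to 14 and 8 to 18 counts in the mature libraries. CHIL was 15.0-fold higher by scaled counts in libraries labelled *ros1-4* (8.53 to 29.3) and 55.6-fold higher in Col-0 (34.6 to 95.7). In both genotypes OMT1 and CHIL passed the filter through their stage II libraries alone, so nothing is read from their direction. The numbers of genes that rose include such genes. From stage II to stage IV 13 of the 45 rose and none fell in libraries labelled *ros1-4*, and 12 rose and 3 fell in Col-0, where 20.7% and 21.8% of all genes tested rose and 19.2% and 16.8% fell. The entry steps carried most of these, with 7 of 8 higher in each genotype, among them PAL1 (2.57 and 4.08) and 4CL1 (2.35 and 3.45).

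Across the 18 libraries the level of CHS in log2 CPM followed a small set of genes most closely among the 14088 genes whose mean reached 5 CPM. Their Pearson correlation with CHS was 0.992 for CHIL, 0.990 for FLS1, 0.989 for ELIP2, 0.989 for AT2G18620 and 0.987 for PAL3. The points share libraries, depth and the large difference between mature and germinating seeds, so these values are a description. Among the members with counts, MYB12 was closest to FLS1 (0.906), CHI to CHS (0.820), F3H to CHI (0.724) and F3'H to F3H (0.454). DFR and BAN were closest to each other (0.878), but both stood at few or no counts, and the genes with the highest correlation to DFR (AT4G15955, AT2G25920, AT3G52120, AT3G54130 and ADF2, 0.917 to 0.935) follow the contrast between mature and germinating seeds.

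Transcripts that respond to light and to the time of day differed between the same libraries. The calls of the marker genes stand against 11.4% of all genes tested that rose and 11.1% that fell at stage II. At stage IV these shares were 3.72% and 4.5%. ELIP1 and ELIP2, early light-induced proteins, were at -2.30 and -2.66 at stage II (edgeR adjusted p = 2.47e-04 and 7.28e-04) and at -1.55 and -2.44 at stage IV (edgeR adjusted p = 0.026 and 3.69e-04). LHY and CCA1, clock factors that peak in the morning, were at -6.32 and -5.46 at stage II and -4.34 and -2.82 at stage IV, while the evening factor TOC1 was at 1.16 and 1.33 and GI at 0.47 and 0.83. The summed level of the 4 clock genes was 128 to 134 CPM in libraries labelled *ros1-4*, against 319 to 418 CPM in Col-0, at stage II and 126 to 137 against 149 to 299.5 CPM at stage IV. Of the 4 greening and light genes, 1 rose and 2 fell at stage II and 2 fell at stage IV, CAB1 being at 1.82 at stage II, and their summed level overlapped, with 3421 to 3507 CPM against 2929 to 3557 CPM at stage II and 4010.4 to 5132 against 4299.7 to 5597 CPM at stage IV. In mature seeds CRU3 was at 0.47, SESA3, a storage albumin, at 0.75 and EPR1 at 1.14 (edgeR adjusted p = 0.00613, 7.15e-05 and 7.58e-06), while the other tested endosperm gene, EXPA2, was at -1.92 and the seed coat gene SBT1.7 at -0.22 (edgeR adjusted p = 4.95e-04 and 0.0187). The summed level of the seed coat genes was 858 to 892 CPM in mature libraries labelled *ros1-4* and 1033 to 1039.7 CPM in mature Col-0, that of the endosperm genes was 78595 to 88935 CPM against 31662 to 47394 CPM, and the summed level of the 2 reserve genes was 235177 to 293911 CPM in libraries labelled *ros1-4* and 174833 to 186744 CPM in Col-0. Both reserve genes were higher at stage II, CRU3 by 2.95 and SESA3 by 1.39, with a summed level of 544 to 826 CPM in libraries labelled *ros1-4* and 114 to 171 CPM in Col-0. At stage IV neither reserve gene was called (149 to 425 CPM against 107 to 392 CPM). Of the 4 seed coat genes 3 were tested and none called at stage II, with 550 to 571 CPM in libraries labelled *ros1-4* and 553 to 662 CPM in Col-0, and at stage IV 1 was called, MUM2 at -0.34, while the summed level was 435 to 484 CPM against 416 to 419.7 CPM. Of the 3 endosperm genes EPR1 rose at stage II, with a summed level of 2753 to 2920 CPM against 1430 to 2291 CPM, and none was called at stage IV (2291 to 2594 against 1348 to 2366 CPM), with ZOU at 0 to 1 counts at both stages. The labels give no hour of sampling, and the part of light, time of day, germination progress or tissue in the lower flavonoid transcripts was not tested.

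**Figure D5:**
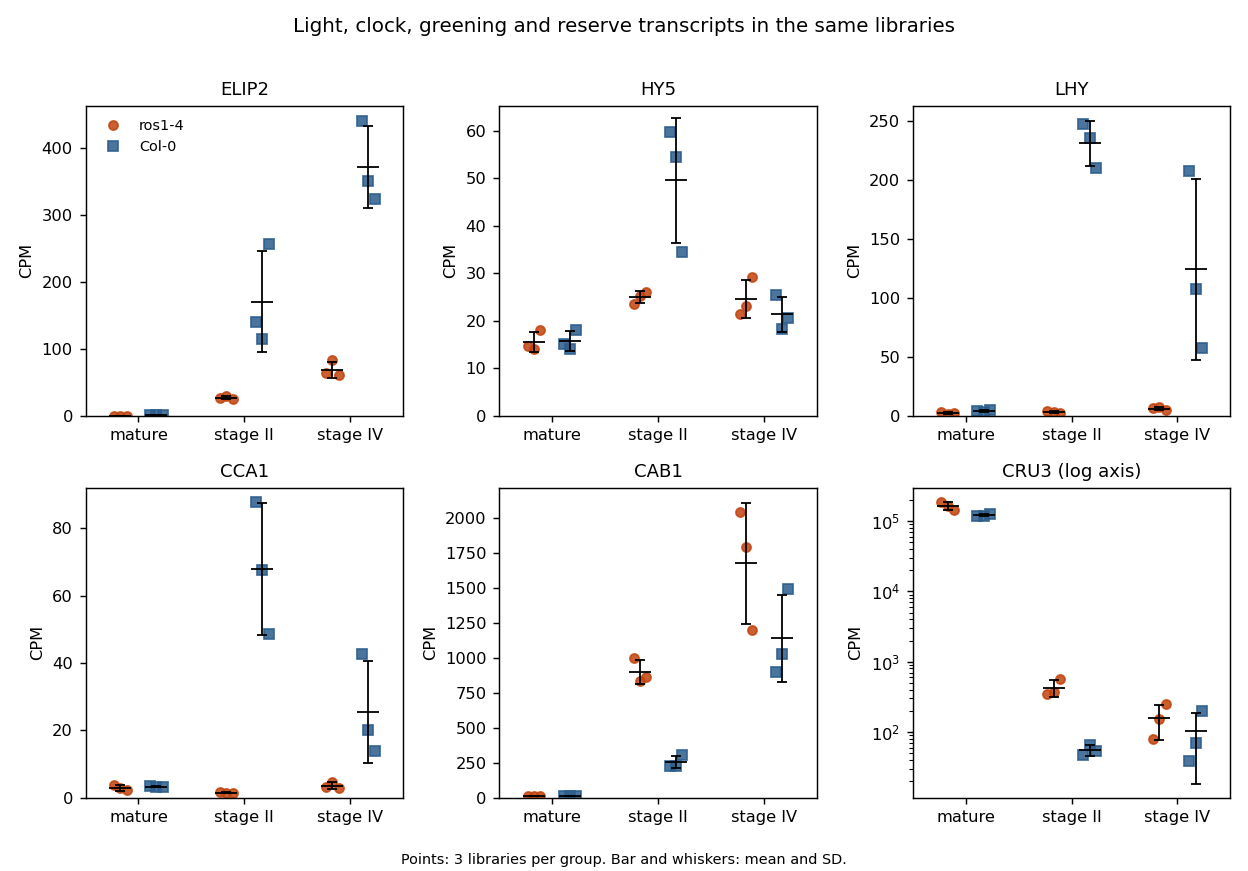
Levels in CPM (vertical axes, logarithmic for CRU3 alone) of ELIP2, HY5, LHY, CCA1, CAB1 and CRU3 in each of the 18 libraries by stage, with *ros1-4* as circles to the left of Col-0 as squares, and the mean with its SD for 3 libraries. At stage II the libraries labelled *ros1-4* were lower in ELIP2, HY5, LHY and CCA1 and higher in CAB1 and CRU3 than all Col-0 libraries.

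Salmon divided the counts of some members between transcripts. F3H had 2 transcripts, of which AT3G51240.1 took 79.5% to 97.2% of the counts of a library labelled *ros1-4* and 83.1% to 97.8% of the counts of a Col-0 library. FLS1 was assigned to AT5G08640.1 alone in the 3 stage II libraries labelled *ros1-4* (565 counts), whereas AT5G08640.2 received 0 to 28.2% of the counts in Col-0. At stage IV its share was 0 to 36.2% in libraries labelled *ros1-4* and 15.0% to 31.8% in Col-0. These shares are estimates from single-end reads of 50 bases and the gene sums used above do not depend on them.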

How the data were processed

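Messenger RNA of whole seeds was sequenced as single-end reads of 50 bases. The deposited tables hold estimated counts per transcript, which the authors obtained with Salmon (version 1.2) against Araport11 transcripts, and replicates were not pooled. Here the counts of all transcripts of a gene were summed and rounded to whole numbers. TPM was computed from the deposited counts and the deposited effective lengths, and CPM with TMM factors over the 18 libraries. The strand setting of the counting is not given in the sources used here.

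Groups came from the sample labels. Each comparison was fitted with edgeR (4.0.16, R 4.3.3) on its own groups, with filterByExpr, TMM and the quasi-likelihood test, p-values adjusted over all genes tested by Benjamini-Hochberg, and a gene called at an adjusted p under 0.05. For genes at 0 to a few counts, ratios of summed counts scaled by effective library size are given with exact 95% intervals that cover counting error only, and a group at 0 was set to a floor of 3 counts per library (0.109 to 0.299 CPM). The alternatives were size factors of DESeq2, library size alone, the Wald test of DESeq2 (1.42.0), no filter on low counts, a replicate block, all 18 libraries in one fit and leaving out each library. The fits were tested on simulated data. The members and the lists of other genes were chosen with earlier results of these data known. The genes named are the 10 members, ROS1, the marker genes, TT8, TTG1, TT16, MYB11, MYB111, PAP1, MYBL2, HY5, TT10, TT12 and CHIL, up to 3 more per list and comparison with the largest log2 fold change among those called, and the 5 genes closest to CHS and to DFR by Pearson correlation of log2(CPM + 0.5). C4H, and PAL3 and UGT78D2 at stage II, fall outside this rule and were chosen after their values were seen. Promoters were read from the TAIR10.1 genome and its RefSeq annotation. Of the 48268 transcript identifiers, 48072 were found in that annotation, all with the length given in the deposited tables.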

Additional observations from a re-analysis of the deposited data

Results flagged for a closer look

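The difference between libraries labelled *ros1-4* and Col-0 itself differed between stages, by the interaction term of edgeR's quasi-likelihood test on 12 libraries, in 5 cases among the members. Of all genes tested, 9.24% changed downwards and 10.4% upwards from mature seeds to stage II. From stage II to stage IV the shares were 2.4% and 1.06%. From mature seeds to stage II it moved by -1.38 (log2) for CHS, -2.76 for CHI, -3.19 for F3H and -3.73 for F3'H. The genotype difference of CHI, F3H and F3'H was above 0 in mature seeds (1.07, 0.46 and 0.62) and below 0 at stage II (-1.68, -2.72 and -3.10). That of CHS was below 0 at both (-0.83 and -2.20), but its direction in mature seeds was largely set by the filter. From stage II to stage IV it moved by 3.12 for F3'H, whose difference was -3.10 at stage II and 0.06 at stage IV. In Col-0 F3'H had 1046, 1055 and 260 counts at stage II, so that replicate 3 was already low before stage IV. The call of F3'H from stage II to stage IV was lost when most libraries were left out in turn, and with the replicate block. That of CHS to stage II was lost without mature *ros1-4* replicate 3.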

How the results depend on the processing

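For the 10 members, under another fit, 295 values for single genes kept their direction and their side of the threshold, 13 lost the call, 2 gained it and 2 changed direction. Leaving out 1 library kept 344 of these, lost 35 calls, gained 4 and reversed 1. With library size alone the direction changed between stage II and mature seeds in libraries labelled *ros1-4* for CHI (1.15), F3H (0.86) and TT15 (0.23), in Col-0 for MYBL2 (0.0080) and AHA10 (0.045), and between genotypes in mature seeds for TT15 (-0.050). This setting ignores that the 10 most abundant genes took a far larger share of the counts in mature seeds. FLS1 between stage IV and stage II in Col-0 ranged between -0.35 (without Col-0 stage IV replicate 1) and 0.17 when 1 library was left out. With all 18 libraries in one fit, 0 members were called between genotypes in mature seeds, against 3, and 1 between stage IV and stage II in libraries labelled *ros1-4*, against 3. With library size alone, 6 other pathway genes were called in mature seeds, all lower, against 3. In that fit 7528 of the 15441 genes tested were called lower and 466 higher, so most calls of all genes were lower too. The Wald test of DESeq2 called 5 other pathway genes in the interaction from stage II to stage IV, 3 higher and 2 lower, against 2. The cause was not tested.

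Replicate numbers did not pair the samples: same-numbered deviations correlated at -0.143 to 0.341, every pair exceeded 0.1 in 0 of 7 comparisons, and 9 of 21 samples were closest to their own number. With the replicate block, 2 members were called between stage IV and stage II in Col-0, both lower (main value 4), 0 members (main value 1) and 1 other pathway gene (main value 2) in the interaction from stage II to stage IV. The block changed the call of 3 member values (CHS and CHI between stage IV and stage II in Col-0, and F3'H in that interaction) and of 4 values of other pathway genes, and of no others.

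Leaving out 1 library gave, for the members, 2 to 3 calls between genotypes in mature seeds (stage II, 5 to 6 and stage IV, 2 to 5), 5 between stage II and mature seeds in libraries labelled *ros1-4* and 6 in Col-0, 1 to 4 between stage IV and stage II in each genotype, and 3 to 4 and 0 to 2 in the interactions to stage II and to stage IV. For the 45 other genes the ranges were 2 to 4, 15 to 22 and 4 to 11 between genotypes, 27 to 29 and 22 to 26 between stage II and mature seeds, 12 to 15 and 9 to 15 between stage IV and stage II, and 7 to 12 and 0 to 10 in the interactions. Depth limits what can be said of DFR, ANS, BAN and TT2, and of FLS1 and MYB12 in mature seeds.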
